A study of Rattus norvegicus with 15 samples.

Results

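Glycogen synthesis and breakdown was examined through 9 genes: Gys2, Gbe1, Gyg1, Ugp2, Pgm1, Pygl, Ppp1r3b, Ppp1r3c and Ppp1r3g. They were chosen as genes of the glycogen pathway, with earlier results of these data known. They were looked up by symbol in a table of 26405 rat genes. The table named 8 of them. Gbe1, which encodes the branching enzyme, was not matched by name and is not analysed here. All livers came from Wistar rats and were taken on the first day of weight regain, after 24 hours of refeeding. The exercised rats had run on a treadmill during weight loss and its maintenance and were refed ad libitum (5 libraries). The gap-matched rats had been sedentary over the same period and received an energy gap-matched diet, which the labels do not define further (5 libraries). The sedentary rats had not run either and were refed ad libitum (5 libraries). The labels number the libraries without saying whether each came from its own animal. The tests below therefore speak only of the variation among libraries, which may be technical.

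Glycogen is the branched store of glucose in liver, and the size of the store follows feeding and fasting. To build it, phosphoglucomutase turns glucose phosphate into the form that UDP-glucose pyrophosphorylase activates, glycogenin starts a chain, glycogen synthase extends it and the branching enzyme branches it. Glycogen phosphorylase takes the chain apart again. Synthase and phosphorylase are switched in opposite senses by phosphorylation, and targeting subunits of protein phosphatase 1 bring that phosphatase to the glycogen particle. Transcript levels do not show the phosphorylation state of these enzymes or the amount of glycogen.

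The values are FPKM, in which fragments are scaled to transcript length and to the mapped fragments of the library, so levels can be compared between genes of different length. Differences between groups are given as log2(FPKM + 1), plus or minus a standard error. They come from one limma fit of 11216 genes whose mean reached 1 FPKM, and a gene passed at a Benjamini-Hochberg adjusted p under 0.05 over all of these genes. Read totals were not used here. From the steps of the lowest values, depth relative to the first sedentary library was 0.824 to 0.946 in exercised, 0.779 to 0.973 in gap-matched and 0.678 to 1 in sedentary libraries, and between libraries of the same group the log2 values correlated at 0.967 to 0.984 across genes. Of 10 hepatocyte markers, 8 could be read, with a summed level of 39900 to 51389 FPKM in exercised, 43987 to 46651 FPKM in gap-matched and 39060 to 49902 FPKM in sedentary livers. Of 8 skeletal muscle markers, a tissue that also stores glycogen, 0 reached a mean of 1 FPKM. They summed to 0.0744 to 1.31 FPKM in exercised, 0.227 to 0.826 FPKM in gap-matched and 0.519 to 1.605 FPKM in sedentary livers. In whole liver, fewer cells of a type and less RNA per cell cannot be told apart.

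One of the 8 genes passed in 1 of the 3 comparisons. Ugp2 rose in gap-matched relative to sedentary rats, where 3.05% of all tested genes passed, 0.820% as higher and 2.23% as lower. Between exercised and sedentary rats 0 of the 8 passed, against 5.78% of all tested genes, 2.51% as higher and 3.26% as lower. Between exercised and gap-matched rats 0 of the 8 passed, against 0.900% of all tested genes, 0.687% as higher and 0.214% as lower. The groups did not overlap for 0 of the 8 between exercised and sedentary rats (6.81% of all tested genes), 1 between gap-matched and sedentary rats (6.03%) and 0 between exercised and gap-matched rats (3.32%). The phosphorylase Pygl and the phosphatase subunit Ppp1r3b were lower on average in both exercised and gap-matched livers without passing. The synthase Gys2 and the glycogenin Gyg1 differed between groups by 0.22 or less on the log2 scale, and neither passed. Ppp1r3c was close to 0 in 14 libraries and stood at 20.4 FPKM in the remaining one.

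**Figure D1:**
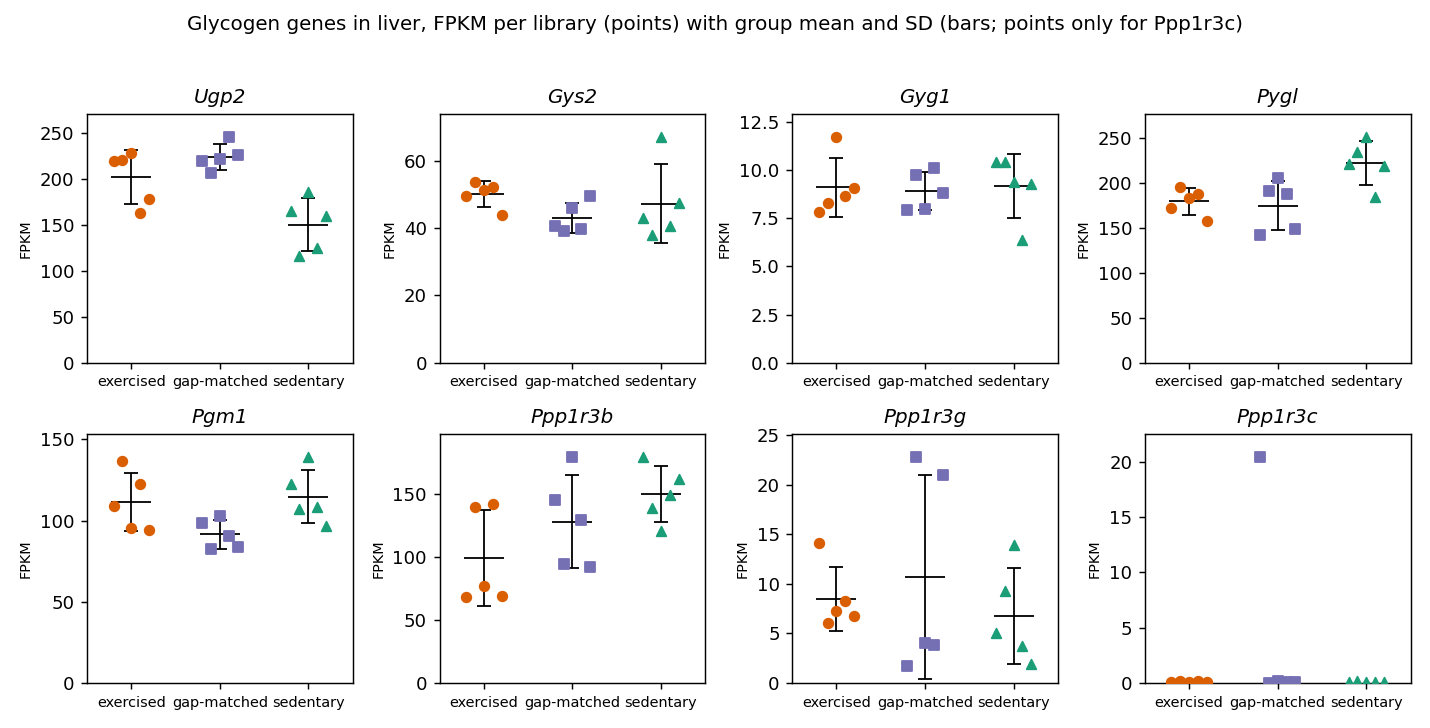
FPKM (vertical axis, linear, from 0) of the 8 measured glycogen genes in exercised (circles), gap-matched (squares) and sedentary (triangles) livers, 5 libraries each; points are libraries and bars the group mean and SD, with points alone for Ppp1r3c. Gap-matched Ugp2 lies above every sedentary library, and 1 gap-matched library holds Ppp1r3c at 20.4 FPKM.

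The promoter sequences of 3 genes are shown for orientation: Ugp2, the gene that passed, Pygl, the enzyme of breakdown, and Ppp1r3c, with its single high library. Each runs 5′ to 3′ along the gene from 250 bases before to 50 bases after the annotated start, taken from RefSeq in the build GRCr8, which is not the build of the FPKM table. Ugp2 lies at chr14:99697953-99698252, Pygl at chr6:94476170-94476469 and Ppp1r3c at chr1:243878478-243878777, all on the minus strand. Capitals mark the letters GGGCGG (GC box) or CACGTG (E box) on either strand.
Ugp2: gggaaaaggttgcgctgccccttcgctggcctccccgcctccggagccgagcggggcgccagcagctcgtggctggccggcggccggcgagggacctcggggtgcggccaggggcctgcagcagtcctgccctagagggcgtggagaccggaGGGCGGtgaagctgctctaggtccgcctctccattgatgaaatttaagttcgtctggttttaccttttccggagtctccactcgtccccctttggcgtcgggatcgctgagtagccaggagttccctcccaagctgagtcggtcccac
Pygl: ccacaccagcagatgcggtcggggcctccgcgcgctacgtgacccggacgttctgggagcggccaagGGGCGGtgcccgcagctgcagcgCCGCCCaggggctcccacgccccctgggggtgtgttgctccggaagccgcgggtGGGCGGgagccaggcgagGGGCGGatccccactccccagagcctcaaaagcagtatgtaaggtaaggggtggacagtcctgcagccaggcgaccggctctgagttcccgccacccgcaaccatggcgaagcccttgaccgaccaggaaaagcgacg
Ppp1r3c: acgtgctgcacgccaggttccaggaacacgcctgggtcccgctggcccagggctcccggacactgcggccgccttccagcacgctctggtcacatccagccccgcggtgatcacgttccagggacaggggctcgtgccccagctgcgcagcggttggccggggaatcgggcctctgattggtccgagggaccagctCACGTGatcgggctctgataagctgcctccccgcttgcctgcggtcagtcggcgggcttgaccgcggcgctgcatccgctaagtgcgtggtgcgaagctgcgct

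Of the 9 genes, 8 had a promoter in that table, Gbe1 included, and Ppp1r3b had none. Both strands of each window were searched for 4 motifs, with no overlap between them. GGGCGG was found in 5 of the 8 windows, 4 times in that of Pygl, 3 times in Gyg1, 2 times in Pgm1 and 1 time each in Ugp2 and Gbe1, and 33.1% of 33469 rat promoters of the same length hold it. CACGTG was found 1 time each in the Ppp1r3c and Gyg1 windows, beginning 54 and 99 bases before the start, and in 6.4% of promoters. The letters TGACGTCA (cyclic AMP response element, in 1.8% of promoters) and GTAAACA (forkhead, in 3.8%) were in 0 of the 8 windows. These are matches of letters and say nothing on binding.

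Ugp2 encodes UDP-glucose pyrophosphorylase, which makes the activated sugar that the synthase adds to the chain. It had 219, 221, 228, 163 and 178 FPKM in exercised libraries 1 to 5, 219, 206, 222, 246 and 226 FPKM in gap-matched libraries 1 to 5, and 165, 116, 185, 125 and 159 FPKM in sedentary libraries 1 to 5. All 5 gap-matched libraries lay above the highest sedentary one, while exercised libraries 4 and 5 lay within the sedentary range. Ugp2 averaged 223.8 ± 14.3 FPKM in gap-matched and 150.0 ± 28.8 FPKM in sedentary livers (SD, n = 5 each), 1.49-fold higher. On the log2 scale it rose by 0.59 ± 0.13 (limma adjusted p = 0.0217). Of all tested genes, 1.47% had gap-matched libraries wholly above the sedentary ones, as did Ugp2.

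The call on Ugp2 was lost without sedentary library 2 (0.51, limma adjusted p = 0.0622), without gap-matched library 4 (0.56, 0.0548) and with no filter on low values (0.59, 0.0683), and it held in the other fits that left out a library, 8 of 10. In exercised rats Ugp2 averaged 201.7 ± 29.3 FPKM. It was 0.43 ± 0.13 above the sedentary level on the log2 scale and just missed the threshold (limma adjusted p = 0.0613). Without sedentary library 3 (0.0322) or exercised library 4 (0.0437) it passed, as it did with library weights (0.0307) and among genes of at least 5 FPKM (0.0498). Exercised and gap-matched rats differed by −0.16 ± 0.13 in Ugp2 (limma adjusted p = 0.56, 95% interval −0.43 to 0.12). The comparisons with sedentary rats share the sedentary libraries.

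Among all tested genes with a name, the 3 whose pattern over the 15 libraries was most like that of Ugp2 were Ces1c, a carboxylesterase, RGD1565766 and Ankrd46. Likeness was the root mean square difference of the log2 values after each gene was centred on its own mean, and it was 0.17, 0.19 and 0.20, against a spread of Ugp2 itself of 0.31. The log2 differences were 0.51, 0.28 and 0.34 for exercised minus sedentary rats and 0.68, 0.27 and 0.54 for gap-matched minus sedentary rats, in the order Ces1c, RGD1565766 and Ankrd46. These genes were picked for their likeness to Ugp2, and the values are a description. Ces1c belongs to a family of similar genes, and whether reads were shared between them was not tested.

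Pgm1 encodes phosphoglucomutase, which serves both the building and the breakdown of glycogen. It had 109, 136, 95.4, 123 and 94.4 FPKM in exercised libraries 1 to 5, 98.5, 82.4, 103, 90.6 and 83.9 FPKM in gap-matched libraries 1 to 5, and 122, 107, 139, 108 and 96.3 FPKM in sedentary libraries 1 to 5. The gap-matched libraries were low, and the 3 groups overlapped. Gap-matched livers were 0.31 ± 0.12 below sedentary livers on the log2 scale (limma adjusted p = 0.177). Exercised livers were 0.27 ± 0.12 above gap-matched livers (limma adjusted p = 0.275) and differed from sedentary livers by −0.04 ± 0.12 (limma adjusted p = 0.887).

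Gys2 encodes the liver form of glycogen synthase. It had 49.5, 53.8, 51.4, 52.2 and 43.8 FPKM in exercised libraries 1 to 5, 40.7, 39.3, 46.0, 39.6 and 49.6 FPKM in gap-matched libraries 1 to 5, and 43.0, 37.9, 67.2, 40.7 and 47.6 FPKM in sedentary libraries 1 to 5. Sedentary library 3 was the highest of all 15, and the groups overlapped. The log2 differences were 0.11 ± 0.13 for exercised minus sedentary (95% interval −0.16 to 0.38), −0.11 ± 0.13 for gap-matched minus sedentary (−0.38 to 0.16) and 0.22 ± 0.13 for exercised minus gap-matched rats (−0.05 to 0.49), with limma adjusted p = 0.691, 0.706 and 0.415 in this order. Without sedentary library 3 the second difference was 0.02.

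Gyg1 encodes glycogenin, the protein primer of a glycogen chain. It ranged from 7.82 to 11.7 FPKM in exercised, 7.94 to 10.1 FPKM in gap-matched and 6.37 to 10.4 FPKM in sedentary livers, with means of 9.11 ± 1.54, 8.93 ± 1.005 and 9.18 ± 1.66 FPKM (SD, n = 5 each). Its log2 differences lay between −0.02 and 0.02, with 95% intervals that stayed within −0.30 and 0.29. Their direction changed with the library left out or, for the comparisons with gap-matched rats, with the scaling.

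Pygl encodes the liver glycogen phosphorylase, which releases glucose phosphate from the chain. It had 172, 196, 183, 188 and 158 FPKM in exercised libraries 1 to 5, 142, 191, 205, 187 and 149 FPKM in gap-matched libraries 1 to 5, and 221, 235, 251, 184 and 219 FPKM in sedentary libraries 1 to 5. The other 4 sedentary libraries lay above all 10 exercised and gap-matched ones, and sedentary library 4 fell among them. Pygl averaged 179.5 ± 14.8 FPKM in exercised, 174.9 ± 27.8 FPKM in gap-matched and 222.2 ± 24.97 FPKM in sedentary livers (SD, n = 5 each). The log2 difference was −0.30 ± 0.11 for exercised minus sedentary rats (95% interval −0.54 to −0.06) and −0.35 ± 0.11 for gap-matched minus sedentary rats (−0.59 to −0.11). Neither passed (limma adjusted p = 0.136 and 0.113), and no fit that left out a library brought either past the threshold, with adjusted p down to 0.0766 and 0.0661.

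**Figure D2:**
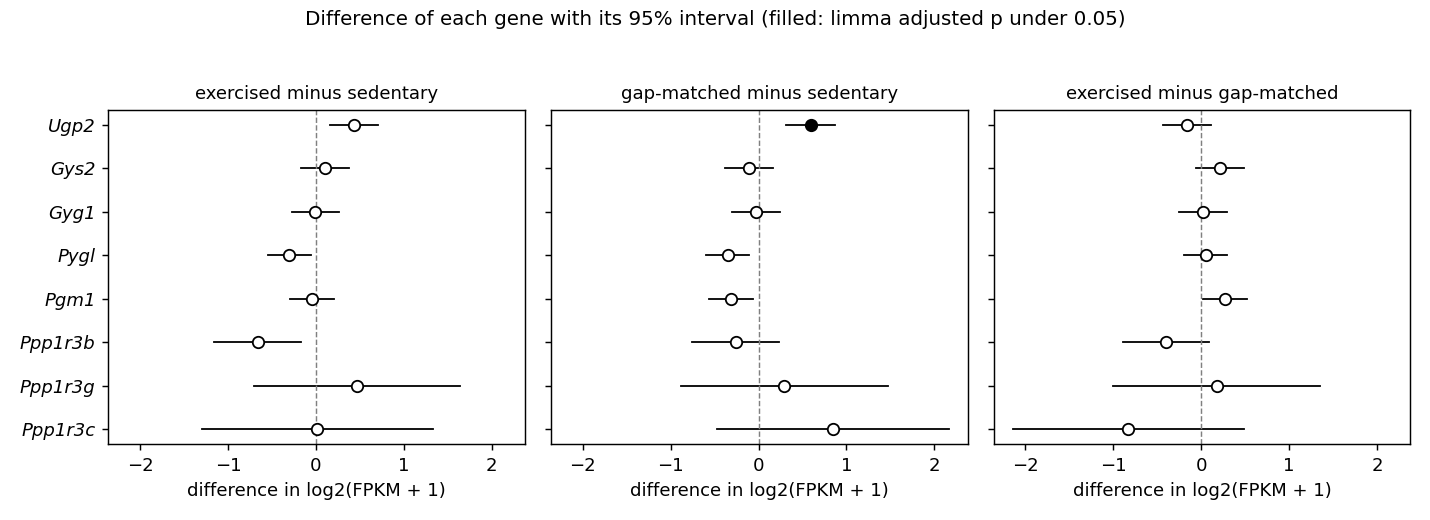
Difference in log2(FPKM + 1) (horizontal axis) of each glycogen gene in the 3 comparisons, with its 95% interval as a line; a filled point marks a limma adjusted p under 0.05. The one filled point is Ugp2 in gap-matched minus sedentary rats, at 0.59, and the intervals of Ppp1r3g and Ppp1r3c are the widest.

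Set against each other within a library, Ugp2 and Pygl stood in a different order in sedentary than in most other livers. This pair was chosen after the values were seen, and the order is a description. Ugp2 stood above Pygl in 4 of 5 exercised, 5 of 5 gap-matched and 0 of 5 sedentary libraries. The ratio of their FPKM ran from 0.864 to 1.27 in exercised, 1.08 to 1.54 in gap-matched and 0.494 to 0.744 in sedentary livers, so that neither of the first 2 ranges met the third. The ratio of Gys2 to Pygl ran from 0.275 to 0.287 in exercised, 0.206 to 0.333 in gap-matched and 0.161 to 0.267 in sedentary livers. The 5 exercised livers lay close together in this ratio, above all sedentary livers, and the gap-matched range covered theirs. How often the ratio of 2 genes separates these groups was not counted over all gene pairs. Both ratios are given as a description.

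**Figure D3:**
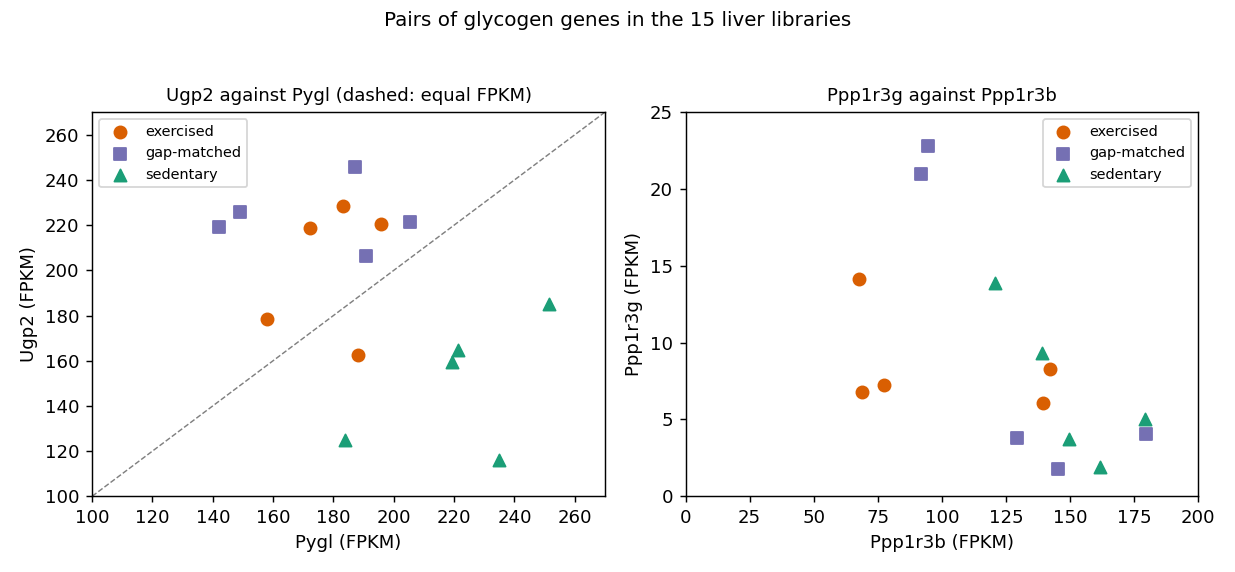
Left, Ugp2 (vertical) against Pygl (horizontal), both in FPKM on axes from 100, with equal levels dashed; right, Ppp1r3g (vertical) against Ppp1r3b (horizontal) in FPKM; circles are exercised, squares gap-matched and triangles sedentary libraries, 5 each. All sedentary livers lie under the dashed line, with ratios of Ugp2 to Pygl up to 0.744, and the 2 highest Ppp1r3g values, 22.8 and 21.0 FPKM, belong to gap-matched libraries with Ppp1r3b under 95 FPKM.

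Ppp1r3b encodes the targeting subunit of protein phosphatase 1 that is prominent in liver. It had 67.8, 140, 77.3, 142 and 68.7 FPKM in exercised libraries 1 to 5, 145, 94.6, 179, 129 and 91.8 FPKM in gap-matched libraries 1 to 5, and 179, 139, 121, 150 and 162 FPKM in sedentary libraries 1 to 5. Exercised libraries 1, 3 and 5 lay below all 10 gap-matched and sedentary ones, whereas exercised libraries 2 and 4 lay inside the sedentary range. It averaged 99.1 ± 38.3 FPKM in exercised, 128.1 ± 36.7 FPKM in gap-matched and 150.1 ± 22.3 FPKM in sedentary livers (SD, n = 5 each). The log2 difference was −0.66 ± 0.23 for exercised minus sedentary rats (95% interval −1.15 to −0.17, limma adjusted p = 0.107). It was −0.26 ± 0.23 for gap-matched minus sedentary rats (limma adjusted p = 0.591) and −0.40 ± 0.23 for exercised minus gap-matched rats (0.401).

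Ppp1r3g encodes another glycogen-targeting subunit, whose transcript in mouse liver has been described as changing between fasting and feeding. It had 14.1, 6.05, 7.27, 8.31 and 6.77 FPKM in exercised libraries 1 to 5, 1.75, 22.8, 4.02, 3.78 and 21.0 FPKM in gap-matched libraries 1 to 5, and 5.0, 9.31, 13.9, 3.7 and 1.91 FPKM in sedentary libraries 1 to 5. Gap-matched libraries 2 and 5 were the highest of all 15 and gap-matched library 1 the lowest, a 13.0-fold range inside 1 group. The range was 7.28-fold in sedentary and 2.33-fold in exercised livers. With this spread the log2 differences were 0.47 ± 0.55 for exercised minus sedentary (95% interval −0.71 to 1.64), 0.29 ± 0.55 for gap-matched minus sedentary (−0.89 to 1.47) and 0.18 ± 0.55 for exercised minus gap-matched rats (−1.0 to 1.35), with limma adjusted p = 0.695, 0.832 and 0.9 in this order.

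With group means taken out, 3 of the 28 pairs of the 8 genes had an unadjusted permutation p of Pearson's r under 0.05 over the 15 libraries (two-sided, permutation within groups), and 0 of the 28 passed after adjustment. Gys2 and Ugp2 had r = 0.62 and a Spearman rho of 0.53 (permutation p = 0.0365 and 0.0757, adjusted p = 0.371 and 0.53). Without sedentary libraries 2 and 3, the libraries farthest from the median in Gys2, r was 0.29. Leaving them out also narrows the range of Gys2, so this does not show that the relation rests on them. Pgm1 and Ppp1r3b had r = 0.60 and rho = 0.57 (permutation p = 0.0397 and 0.0592, adjusted p = 0.371 and 0.53), and r was 0.75 without exercised library 2 and sedentary library 3. Ppp1r3b and Ppp1r3g had r = −0.60 and rho = −0.54 (permutation p = 0.013 and 0.0276, adjusted p = 0.363 and 0.53), and r was −0.71 without exercised libraries 2 and 4.

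Ppp1r3c encodes the targeting subunit also called protein targeting to glycogen, which occurs in muscle and fat as well as liver. It had 0.04, 0.163, 0.106, 0.152 and 0.0365 FPKM in exercised libraries 1 to 5, 20.4, 0, 0.183, 0.0688 and 0.0428 FPKM in gap-matched libraries 1 to 5, and 0.0336, 0.182, 0.0828, 0.0757 and 0.0517 FPKM in sedentary libraries 1 to 5. Gap-matched library 1 stood 111-fold above the next highest library, and the other 14 held at most 0.183 FPKM. On the log2(FPKM + 1) scale this gap was 4.18, the widest of any 1 library over the rest among 26403 genes, and 3 genes of that library stood more than 2 above all others. Ppp1r3c passed the filter on low values through that library alone, and 7 of the genes had a mean of at least 1 FPKM without it.

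The log2 differences of Ppp1r3c were 0.85 ± 0.62 for gap-matched minus sedentary rats and −0.83 ± 0.62 for exercised minus gap-matched rats (limma adjusted p = 0.5 and 0.53). Without gap-matched library 1 they were −0.02 and 0.04. In that library the 8 skeletal muscle markers summed to 0.227 FPKM, the lowest sum of its group. The fat cell markers Adipoq, Plin1 and Lep, each with a mean under 1 FPKM, summed to 0.945 FPKM there. This was the highest of all 15 libraries, against 0 to 0.352 FPKM in the others. Most of that sum was Adipoq, at 0.786 FPKM, and neither Plin1 nor Lep was at its highest in that library. The whole list of 5 fat cell markers, 2 of which reached a mean of 1 FPKM, summed to 68.4 to 84.4 FPKM in exercised, 53.9 to 74.8 FPKM in gap-matched and 52.0 to 63.8 FPKM in sedentary livers. Most of this sum came from Cfd and Cidec, with means of 20.4 and 44.8 FPKM over the 15 libraries. One of these, Cfd, was higher in exercised than in sedentary rats (0.53 ± 0.12 on the log2 scale, limma adjusted p = 0.0194). The groups did not overlap, as for 6.81% of all tested genes. The other fat cell markers were mixed in this comparison. Cidec differed by 0.335 ± 0.0997 (limma adjusted p = 0.061). Mean FPKM in exercised and sedentary livers was 0.085 and 0.234 for Adipoq, 0 and 0.0168 for Plin1, and 0.0211 and 0.00849 for Lep. The part of fat cells in the Ppp1r3c value was not tested. A second entry of the table under the symbol PPP1R3C (ENSRNOG00000049549, against ENSRNOG00000018494 for the values above) was at 0 in 13 libraries, gap-matched library 1 among them, and reached 0.129 FPKM. Tnks2, the nearest protein-coding gene after Ppp1r3c on one side in the RefSeq annotation of GRCr8, also had 2 entries, of 14.3 to 19.4 and 12.0 to 17.1 FPKM. Reads that fit both copies of a gene can be shared between them. Whether this touched the values of Ppp1r3c was not tested, and its level is uncertain.

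Across the 15 libraries, Pygl (192.2 ± 30.8 FPKM) and Ugp2 (191.8 ± 39.5) had the highest levels of the 8 genes, followed by Ppp1r3b (125.8 ± 37.6), Pgm1 (106.0 ± 17.5), Gys2 (46.8 ± 7.65), Gyg1 (9.07 ± 1.33) and Ppp1r3g (8.65 ± 6.54) (SD, n = 15). Pygl and Ugp2, Ppp1r3b and Pgm1, and Gyg1 and Ppp1r3g differed by less than this spread. Within groups, the SD of the log2 values was 0.09 to 0.32 for Ugp2, Gys2, Gyg1, Pgm1 and Pygl, 0.22 to 0.54 for Ppp1r3b and 0.43 to 1.41 for Ppp1r3g.

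Of the 51 other genes of the pathway and its control, 46 were named in the table and 35 were tested. Between exercised and sedentary rats 1 of the 35 fell and 0 rose, where 5.78% of all tested genes passed, 3.26% as lower. The median log2 difference was 0.06 against 0.01 over all tested genes. The one that fell was Gckr, a regulatory protein of glucose phosphorylation in liver. Of the 35, 0 passed between gap-matched and sedentary rats, where 3.05% of all tested genes passed (median −0.03, as over all tested genes). Between exercised and gap-matched rats 0 passed, where 0.900% of all tested genes passed (median 0.05 against 0.04). An unadjusted p under 0.05 was found for 11, 5 and 8 of the 35 in these comparisons in order, and for 3, 3 and 1 of the 8 genes above, where it was found for 21.1%, 17.8% and 16.5% of all tested genes.

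Gckr had 35.9 to 46.6 FPKM in exercised livers, 52.6 to 75.2 FPKM in gap-matched livers and 53.2 to 86.9 FPKM in sedentary livers. The exercised libraries lay below all others, as was found for 3.66% of tested genes against sedentary and 1.04% against gap-matched libraries. It fell by 0.64 ± 0.13 on the log2 scale in exercised relative to sedentary rats (limma adjusted p = 0.012, and 0.00985 to 0.038 with a library left out). In this comparison the fat cell markers were mixed. Cfd also passed, as higher, and Cidec was higher on average without passing. Of the markers under 1 FPKM, Lep was higher on average, while Adipoq and Plin1 were lower. Gckr differed by −0.56 ± 0.13 between exercised and gap-matched rats, which just missed the threshold (limma adjusted p = 0.059, and 0.0469 among genes of at least 5 FPKM). Between gap-matched and sedentary rats Gckr differed by −0.07 ± 0.13 (limma adjusted p = 0.826).

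The most abundant genes of the other groups did not pass in any comparison. Stbd1, a glycogen-binding protein, led the other glycogen enzymes and binding proteins with 99.8 ± 11.6 FPKM in exercised, 105.7 ± 5.85 FPKM in gap-matched and 106.7 ± 12.6 FPKM in sedentary livers. Ppp1ca, a catalytic subunit of protein phosphatase 1, had 120.2 ± 15.6, 117.9 ± 12.1 and 116.7 ± 5.48 FPKM in exercised, gap-matched and sedentary livers. Gcgr, the glucagon receptor, had 108.2 ± 6.67 FPKM in exercised, 84.5 ± 11.1 FPKM in gap-matched and 99.5 ± 8.35 FPKM in sedentary livers. All 5 exercised libraries lay above all gap-matched ones, and the log2 difference of 0.36 ± 0.09 had a limma adjusted p = 0.0807. Groups without overlap in that direction were found for 2.27% of tested genes. Slc2a2, the liver glucose carrier, had 366.2 ± 62.9, 349.5 ± 46.7 and 330.9 ± 38.5 FPKM in exercised, gap-matched and sedentary livers. Calm2, a calmodulin that is also a subunit of phosphorylase kinase, had 210.7 ± 56.8, 298.8 ± 60.0 and 308.2 ± 61.3 FPKM in exercised, gap-matched and sedentary livers (SD, n = 5 each). Phka1 and Phka2, subunits of phosphorylase kinase, Ppp1r3a and Adcy6 were listed at 0 in all 15 libraries. A value of 0 in every library does not show whether a gene was silent or its reads were not counted.

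Markers of liver zones were read in the same livers. The 7 pericentral markers summed to 2313 to 3204 FPKM in exercised, 1722 to 3003 FPKM in gap-matched and 1059 to 2282 FPKM in sedentary livers, and 1 of the 6 tested, Cyp2e1, was higher in exercised than in sedentary rats. The 7 periportal markers summed to 4097 to 8182 FPKM in exercised, 3465 to 4412 FPKM in gap-matched and 3532 to 5948 FPKM in sedentary livers, and 1 of the 7 tested, Pck1, was higher in exercised than in sedentary rats. Between exercised and sedentary rats 5.78% of all tested genes passed, 2.51% as higher. Between gap-matched and sedentary rats 0 of the 13 tested zone markers passed, against 3.05% of all tested genes. The largest log2 differences in each direction were those of the periportal markers Pck1 and Ass1, at 1.04 ± 0.42 and −0.52 ± 0.17 (limma adjusted p = 0.207 and 0.114). Of 5 red cell markers, 4 were named in the table and 2 were tested, with Alas2 listed at 0. They summed to 705.3 to 1332 FPKM in exercised, 1114 to 1675 FPKM in gap-matched and 588.9 to 1233 FPKM in sedentary livers. For gap-matched minus sedentary rats Hbb differed by 0.95 ± 0.34 and Hba1 by 0.46 ± 0.20 on the log2 scale (limma adjusted p = 0.147 and 0.23). The part of zonation and of blood in the values of the glycogen genes was not tested.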

How the data were processed

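Liver RNA was sequenced as 15 libraries in 3 groups of 5. The authors deposited FPKM for each library and Ensembl gene. Per the submitters' processing notes, Trimmomatic and Cufflinks were used with build Rnor_5.0, and no tool version is named. The aligner and filters are not given in the sources used here. Of 26407 rows, 2 repeated an identifier, and 2 genes (Alb, Slc27a2) held the placeholder 999999999 in some libraries; these were left out. A symbol on several rows was read from the row with the highest mean FPKM, and no gene coordinates of that build were used. Fragment totals are unknown, so no counting intervals are given; relative depth was the commonest ratio of values of genes under 0.3 FPKM, in log2 bins of 0.04.

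Values were analysed as log2(FPKM + 1), which understates differences of genes near 1 FPKM, for 11216 genes whose mean reached 1 FPKM, in one fit of the 3 groups (limma 3.58.1, R 4.3.3, mean trend, two-sided, Benjamini-Hochberg). The fit was tested on simulated data. The outcome of that test is not given here and was not used to judge the differences reported. Correlations used 100000 permutations within groups (Python 3.11.15, numpy 2.4.6, pandas 2.3.3), and plots matplotlib 3.10.9. Alternatives were 2 pseudocounts (0.1 and 0.5), no filter, a filter at 5 FPKM, 3 scalings, 3 settings of the variance and library weights, the 2 groups compared alone, the replicate number as block, and each library left out with the set of genes kept. The genes and lists were chosen with earlier results of these data known. Named from the other pathway genes were those that passed and the most abundant of each list, and, for a member that passed, the 3 genes of most similar pattern. The same alternatives for Gckr were added after seeing the data.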

Additional observations from a re-analysis of the deposited data

Results flagged for a closer look

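In 24 sets of 5 libraries (8 genes in 3 groups), 2 libraries stood far from the rest of their group, by a gap to the nearest library of more than 0.71 of the group's range, both taken on the log2(FPKM + 1) scale. Chance alone flags about 1 in 20 such sets. Ppp1r3c was at 20.4 FPKM in gap-matched library 1 and at 0 to 0.183 FPKM in the other gap-matched libraries, and the gap was 0.945 of the range of the log2 values. Gyg1 was at 6.37 FPKM in sedentary library 4 and at 9.29 to 10.4 FPKM in the other sedentary libraries, and the gap was 0.76 of the range of the log2 values. The causes of both values were not tested.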

How the results depend on the processing

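Under the 12 alternative settings and with each library left out, 547 of 591 differences of the 8 genes and Gckr kept their direction and their side of the threshold. Most of these 547 had not passed in the main fit either, so the count says little on the calls. The call on Ugp2 between gap-matched and sedentary rats held in 11 of the 12 settings and 8 of the 10 fits without a library. The genes that passed numbered 648 between exercised and sedentary rats, 342 between gap-matched and sedentary rats and 101 between exercised and gap-matched rats. With no filter on low values, which tests more genes, they numbered 334, 168 and 29 in the same order. Between exercised and gap-matched rats they numbered 34 with libraries scaled to the same sum and 16 with only the 2 groups compared. With a library left out they numbered 342 to 642, 147 to 357 and 18 to 131. Lower genes made up 73.1% of those that passed in gap-matched relative to sedentary rats, against 58.9% with median-of-ratios, 59.7% with quantile and 83.9% with sum scaling, and 23.8% in exercised relative to gap-matched rats, against 40.7% and 36.6% with the first 2 of these. Of the 8 glycogen genes, 0 passed between exercised and sedentary rats, but 1, Ugp2, with library weights or a filter at 5 FPKM, and 0 to 1 with a library left out. Between gap-matched and sedentary rats 1 passed, but 0 with no filter, and 0 to 1 with a library left out. The causes were not tested.

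The labels do not say whether replicate numbers pair samples, and the main fit used no pairing. Deviations of same-numbered libraries correlated at −0.267 to 0.187, which does not settle whether they share a pair or batch. With that number as a block, 449, 201 and 20 genes passed in the 3 comparisons, and Ugp2 still passed in gap-matched relative to sedentary rats (limma adjusted p = 0.0396).

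Some differences changed sign, most of them small, but also larger ones of Ppp1r3c and Ppp1r3g. For exercised minus sedentary rats Ppp1r3c was −0.146 with quantile normalization, and with a library left out Gyg1 ran from −0.116 to 0.043, Pgm1 from −0.119 to 0.029 and Ppp1r3c from −0.002 to 0.050. For gap-matched minus sedentary rats Gyg1 was 0.018 with median-of-ratios scaling and 0.032 with quantile normalization, and with a library left out Gyg1 ran from −0.137 to 0.022, Gys2 from −0.179 to 0.023, Ppp1r3g from −0.098 to 0.680, Ppp1r3c from −0.017 to 1.089 and Gckr from −0.144 to 0.034. For exercised minus gap-matched rats Gyg1 was −0.026 and −0.033 under the same 2 scalings and Pygl −0.001 under the first. With a library left out, Gyg1 ran from −0.066 to 0.067, Pygl from −0.022 to 0.110, Ppp1r3g from −0.212 to 0.566 and Ppp1r3c from −1.070 to 0.035. Absolute depth is unknown, so how far it limits the low values of Ppp1r3c and Ppp1r3g cannot be given. Ppp1r3c had no value under the filter at 5 FPKM.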
